A study of Sus scrofa with 16 samples.

Results

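Actin, its sequestering thymosins and a set of actin-binding proteins were followed through the elongation of the pig conceptus, the embryo with its extraembryonic membranes. The genes were taken by symbol from the platform annotation: ACTG1, TAGLN2, TMSB10, TMSB4X, CALD1 and PARVA. Each was measured by 1 probe, so that 6 of the 1015 probes, and 6 of the 638 genes named by a probe with a single symbol, are described. Conceptuses had been sorted by shape and length. Spheres of 1 to 5 mm formed the small spherical stage and spheres of 6 to 11 mm the large spherical stage, tubes of 13 to 45 mm the tubular stage and threads longer than 100 mm the filamentous stage. No treatment, genotype or breed is named in the labels. Amplified RNA carrying a phosphorus-32 label was measured on macroarrays, membranes spotted with cDNA products, with 4 arrays for each stage. Whether these 4 stem from different animals, litters or pools is left unsaid in the labels, so p-values measure the spread between these samples, which may be technical.

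Actin monomers assemble into filaments that give a cell its shape and pull on its neighbours, and cells keep a reserve of monomers from which filaments grow. Thymosins bind monomers and hold that reserve, while transgelins and caldesmon lie along filaments and parvins tie filaments to integrins at the cell base. Before attachment, the pig conceptus changes from a sphere to a long thread, mainly by remodelling of its outer epithelium, the trophectoderm, and rearrangement of actin filaments in those cells is a known feature of the process.

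Among the 6 genes, TMSB10 rose along the order of stages in a test of trend, the 1 call among the 6 in the fit of stage means alone. Its tubular and filamentous levels were close to each other. TAGLN2 read highest in filamentous conceptuses and CALD1 in large spherical ones, each with the small spherical stage lowest, but neither passed in that fit. The arrays numbered 1 stood apart in every stage, and with the array number in the fit, TAGLN2 passed in the trend and in filamentous minus small spherical, as did TMSB10. With only the 12 arrays numbered 2 to 4, neither gene passed in either test. TMSB4X read highest in large spherical conceptuses. Stage means of ACTG1 and PARVA lay within the spread between arrays, and PARVA was low on the array numbered 1 of every stage. The threshold was an adjusted p of 0.05 in a limma fit to all 1014 probes that varied, with Benjamini-Hochberg adjustment within each test.

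**Figure D1:**
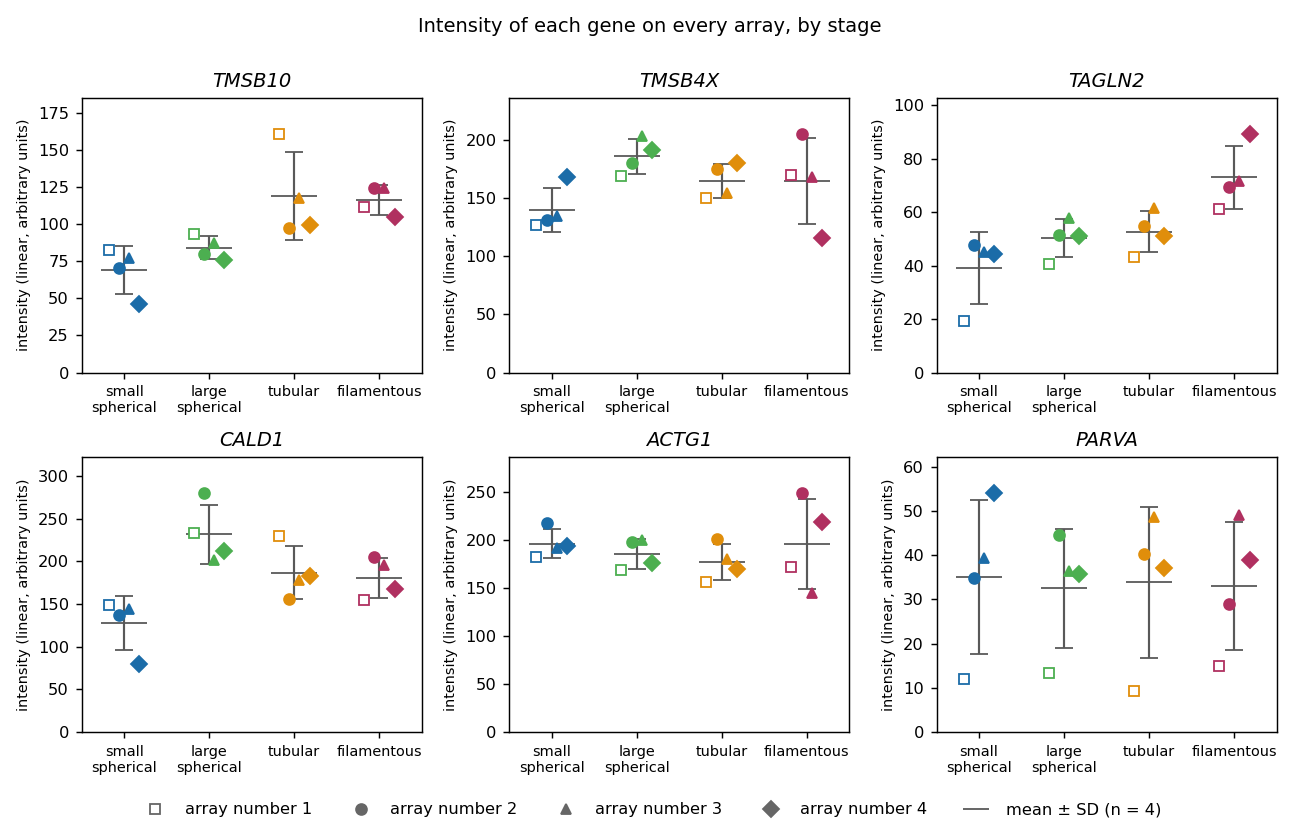
Intensity of the 6 genes (vertical axes, linear arbitrary units, each from 0) on every array, by stage (horizontal axes, in order of length). Symbols give the array number in the sample title, open squares being arrays numbered 1, and bars give the mean ± SD of 4 arrays. TMSB10 and TAGLN2 sit highest in the longer stages, CALD1 in large spherical conceptuses, and the 4 open squares of PARVA lie between 9.39 and 15.1, below all its other points.

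Facts of the arrays that touch these results are few. Array medians ran from 62.8 to 71.4. Pairs of arrays had a Spearman correlation of 0.841 to 0.96 where they shared a stage and of 0.794 to 0.974 where they did not, and 4 of 16 arrays were closest to the mean of their own stage. The 4 arrays numbered 1, 1 in each stage, lay apart from the other 12 on the first principal component (8.17 to 16.3, against -9.4 to 4.25). Small spherical replicate 1 was closer to the large spherical mean than to its own (Spearman 0.908, against 0.896), as was replicate 3 (0.964, against 0.95), and all 4 tubular arrays were closest to the large spherical mean. Each array was left out of its own stage mean, which thus held fewer arrays than the means of the other stages. For an array numbered 1, the other means held an array of that number and its own did not. These comparisons are therefore tilted against the own stage. For scale, STAR, which carries cholesterol for steroid synthesis, had an adjusted p of 0.000617 in the F test over the 4 stages. A gene's intensity depends on its own spot, so levels are not set against each other between genes.

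TMSB10 and TMSB4X encode thymosins, small proteins that each hold 1 actin monomer. TMSB10 read 82.5, 70.1, 77.5 and 46.4 at the small spherical stage, 93.7, 79.7, 87.1 and 76.1 at the large spherical stage, 161, 97.5, 118 and 99.1 at the tubular stage and 112, 124, 125 and 105 at the filamentous stage (intensity, arrays 1 to 4). Every tubular and every filamentous array lay above every array of both spherical stages, while tubular and filamentous arrays overlapped, as did large and small spherical ones. Of all probes, 4.54% lay wholly higher in tubular than in small spherical arrays and 1.18% than in large spherical ones. For filamentous arrays these shares were 4.54% and 2.86%. The share with all these separations at once was not counted. Its stage means in order of length were 69.1 ± 16, 84.1 ± 7.86, 119 ± 29.6 and 116 ± 9.9 (SD, n = 4).

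Fitted against stage order with equal steps, TMSB10 rose by 0.28 ± 0.06 on the log2 scale per stage (SE, 95% interval 0.15 to 0.42, limma adjusted p = 0.0482). By this test 10 of 1014 probes passed (0.986%), TMSB10 with them and no other of the 6 genes. The trend was chosen with earlier results of these data known, stands beside the F test and 6 pair contrasts of the same gene with no adjustment across them, and lay close to the threshold. With the replicate number as a block its adjusted p was 0.0139, and with a term for the arrays numbered 1 it was 0.0176. In filamentous conceptuses TMSB10 was 1.72-fold its small spherical level (log2 difference 0.78 ± 0.20, 95% interval 0.35 to 1.21), which did not pass (adjusted p = 0.097). Nor did tubular minus small spherical (0.79 ± 0.20, adjusted p = 0.0863), tubular minus large spherical (0.47 ± 0.20, adjusted p = 0.999) or filamentous minus large spherical (0.47 ± 0.20, adjusted p = 0.722). Filamentous minus tubular was -0.005 ± 0.20 (95% interval -0.43 to 0.42), so no rise was seen over the last step. With the replicate block, TMSB10 passed in filamentous minus small spherical (adjusted p = 0.0277) and in tubular minus small spherical (adjusted p = 0.0385).

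The TMSB10 trend rested on most of the arrays. Leaving out 1 array ended the call for small spherical replicates 2 and 4, every large spherical array, tubular replicates 3 and 4 and every filamentous array, with an adjusted p of 0.0517 to 0.121 in these cases. With only the 12 arrays that carry numbers 2 to 4, the trend was 0.31 ± 0.06 per stage (adjusted p = 0.0562), and filamentous minus small spherical was 0.89 ± 0.20 (adjusted p = 0.0669). Without small spherical replicate 4, the lowest TMSB10 array, filamentous minus small spherical was 0.60 ± 0.18 (adjusted p = 0.201). Tubular minus small spherical was then 0.60 ± 0.18 (adjusted p = 0.227). Large minus small spherical was 0.13 ± 0.18 without that array, against 0.31 ± 0.20 with it.

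TMSB4X, the more widely studied thymosin, read 126, 131, 135 and 167 at the small spherical stage, 169, 180, 203 and 191 at the large spherical stage, 150, 175, 155 and 180 at the tubular stage and 170, 205, 167 and 116 at the filamentous stage. All 4 large spherical arrays lay above the small spherical ones, as for 3.85% of all probes, the nearest pair being 169 and 167. The filamentous arrays spanned the whole range of the gene. Large spherical conceptuses were at 1.33-fold the small spherical level (0.41 ± 0.17, 95% interval 0.05 to 0.78, adjusted p = 0.384). Filamentous minus small spherical was 0.21 ± 0.17 (95% interval -0.15 to 0.58, adjusted p = 0.652), and was 0.10 without filamentous replicate 2 and 0.37 without filamentous replicate 4. The probe of this gene carried 2 Entrez identifiers under 1 symbol, of which 1 was found in the RefSeq gene table.

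The 2 thymosins were set against each other within arrays, since the ratio of 2 spots on 1 membrane shows whether they changed unequally between stages. The ratio of TMSB10 to TMSB4X intensity was 0.658, 0.606, 0.744 and 0.902 in filamentous conceptuses, against 0.556, 0.443, 0.429 and 0.398 in large spherical ones, with no overlap. The difference was 0.67 on the log2 scale (exact permutation test, two-sided, p = 0.0286, the smallest that 4 against 4 arrays allow). Adjusted over the 6 pairs of stages compared it was 0.114, so no pair passed. With that smallest p and this adjustment, a single pair of stages could not pass on its own, however large its difference. Filamentous minus small spherical gave 0.56 (exact p = 0.0571, adjusted 0.114), and large minus small spherical -0.10 (exact p = 0.8, adjusted 0.96). This comparison was added after the values of both genes had been seen.

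TAGLN2, a transgelin that bundles actin filaments, read 19.1, 47.8, 45.1 and 44.3 at the small spherical stage, 40.7, 51.4, 57.8 and 51.1 at the large spherical stage, 43.4, 54.8, 61.7 and 51 at the tubular stage and 61.2, 69.4, 71.7 and 89.4 at the filamentous stage. Every filamentous array lay above every spherical one, and 3 of 4 above every tubular array. Of all probes, 4.54% lay wholly higher in filamentous than in small spherical arrays and 2.86% than in large spherical ones. The share with both was not counted. Large spherical and tubular arrays overlapped throughout, and the array numbered 1 was the lowest of each stage.

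Stage means of TAGLN2 were 39 ± 13.4, 50.2 ± 7.05, 52.7 ± 7.65 and 73 ± 11.8 from small spherical to filamentous conceptuses (SD, n = 4). Filamentous conceptuses were at 1.97-fold the small spherical level (log2 difference 0.98 ± 0.26, 95% interval 0.43 to 1.52, adjusted p = 0.097). The trend was 0.30 ± 0.08 per stage (95% interval 0.13 to 0.47, adjusted p = 0.0918). It passed with the replicate block (adjusted p = 0.0249) and with a term for the arrays numbered 1 (adjusted p = 0.0115). Over only the 12 arrays numbered 2 to 4 the trend was 0.23 ± 0.05 per stage and did not pass (adjusted p = 0.0722). Of the separate steps, large minus small spherical was 0.44 ± 0.26 (adjusted p = 0.7) and filamentous minus tubular 0.47 ± 0.26 (adjusted p = 0.994). Without small spherical replicate 1 large minus small spherical was 0.13 ± 0.18 (adjusted p = 0.897).

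The low small spherical array, replicate 1 at 19.1, carried part of the TAGLN2 difference, which was 0.66 ± 0.18 without it (adjusted p = 0.135) and 0.74 ± 0.16 over the 12 arrays that carry numbers 2 to 4 (adjusted p = 0.0637). With a term for the arrays numbered 1 the difference of 0.98 had an adjusted p of 0.00863, and that of TMSB10 one of 0.0459, so both passed in that fit. With the replicate block TAGLN2 passed as well (adjusted p = 0.0232).

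CALD1 encodes caldesmon, which lies along actin filaments and restrains myosin. It read 149, 137, 144 and 80.2 at the small spherical stage, 233, 280, 202 and 212 at the large spherical stage, 229, 156, 178 and 183 at the tubular stage and 154, 205, 195 and 168 at the filamentous stage. The 4 small spherical arrays were the lowest of the 16, with no overlap. Of all probes, 3.85% lay wholly above small spherical arrays in large spherical ones, 4.54% in tubular and 4.54% in filamentous ones. The share with all these at once was not counted. Means were 128 ± 31.9, 232 ± 34.5, 187 ± 30.7 and 181 ± 23.6 in order of length (SD, n = 4), so the highest stage was the second and not the last.

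CALD1 in large spherical conceptuses was at 1.85-fold the small spherical level (0.89 ± 0.21, 95% interval 0.45 to 1.33), the eighth smallest of 1014 p-values in that test, and did not pass (adjusted p = 0.0669). Tubular minus small spherical was 0.58 ± 0.21 (adjusted p = 0.206), and filamentous minus small spherical 0.53 ± 0.21 (adjusted p = 0.235). Filamentous minus large spherical was -0.36 ± 0.21 (95% interval -0.80 to 0.08, adjusted p = 0.722), and this did not pass. Without small spherical replicate 3 the first step of CALD1 passed (0.96 ± 0.23, adjusted p = 0.0343), and without the low small spherical replicate 4 it was 0.68 ± 0.18 (adjusted p = 0.148). Without replicate 4, tubular minus small spherical was 0.37 ± 0.18 and filamentous minus small spherical 0.32 ± 0.18 for CALD1.

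**Figure D2:**
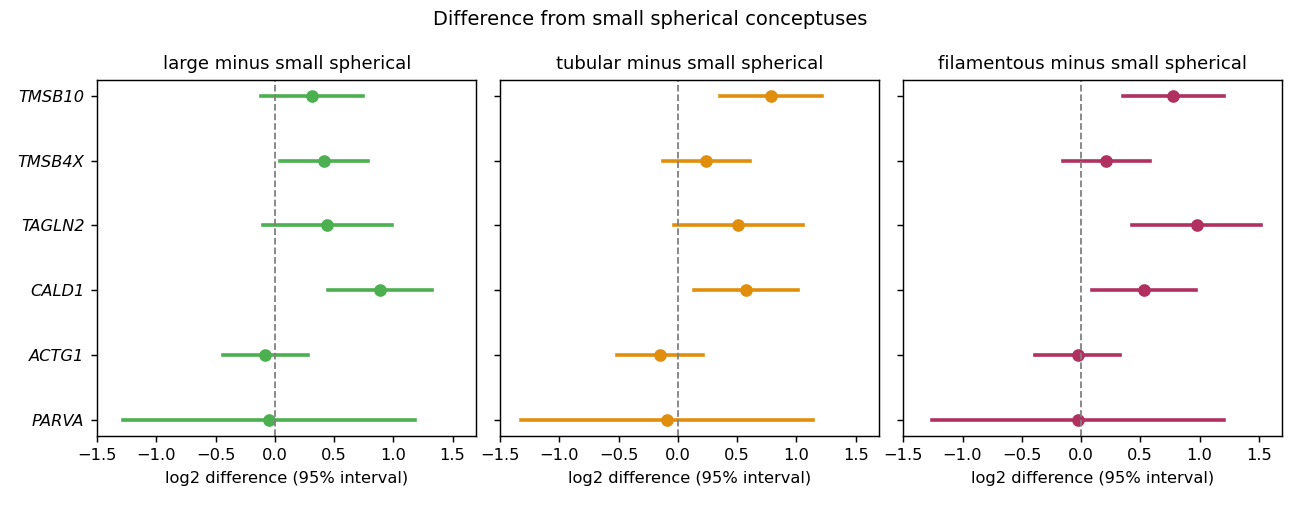
Log2 difference (horizontal axes) of the large spherical, tubular and filamentous stages from the small spherical stage for the 6 genes, with 95% intervals from the limma fit. In the filamentous panel the intervals of TMSB10, TAGLN2 and CALD1 lie above 0, in the large spherical panel those of TMSB4X and CALD1, while those of ACTG1 and PARVA span 0 in all 3. The panels share the 4 small spherical arrays, and the intervals carry no correction for the number of probes.

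ACTG1 encodes gamma actin, one of the 2 actins of the cytoplasm in non-muscle cells. It read 182, 217, 191 and 194 at the small spherical stage, 169, 198, 199 and 176 at the large spherical stage, 157, 201, 180 and 170 at the tubular stage and 172, 249, 145 and 218 at the filamentous stage. The stages overlapped, and the filamentous arrays held both the highest and the lowest value of the gene. Means lay between 177 ± 18.6 in tubular and 196 ± 15.2 in small spherical conceptuses (SD, n = 4).

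For ACTG1 the F test over stages gave an adjusted p of 0.999 (unadjusted p = 0.826). Filamentous minus small spherical was -0.03 ± 0.17 with a 95% interval of -0.39 to 0.33 on the log2 scale (adjusted p = 0.976), so differences inside that interval could not be resolved. Its residual SD of 0.21 was below the median of all probes (0.38). A further probe, number 270, carries the symbols of 2 actins including ACTG1 and was not counted as a member. It was the maximum of its array, where values can be saturated, on 9 of 16 arrays and is not interpreted.

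PARVA encodes alpha-parvin, an adaptor that links integrin-linked kinase to actin filaments. It read 12, 35, 39.3 and 54.1 at the small spherical stage, 13.3, 44.7, 36.4 and 35.8 at the large spherical stage, 9.39, 40.2, 48.7 and 37.2 at the tubular stage and 15.1, 29, 49.1 and 38.9 at the filamentous stage. The 4 arrays numbered 1 read 9.39 to 15.1 and the 12 others 29 to 54.1, with no overlap. Of all probes, 28 of 1014 (2.76%) lay lower on the arrays numbered 1 without overlap, and PARVA was the 1 such gene among the 6.

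By stage, PARVA averaged 35.1 ± 17.4, 32.5 ± 13.5, 33.9 ± 17 and 33 ± 14.5 in order of length (SD, n = 4), and its F test had an unadjusted p of 0.999. Filamentous minus small spherical was -0.02 ± 0.58 (95% interval -1.26 to 1.21). Without the arrays numbered 1 it was -0.14 ± 0.24 (adjusted p = 0.881). The residual SD of PARVA was 0.90 on the log2 scale with all 16 arrays, against a median of 0.38 over all probes.

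**Figure D3:**
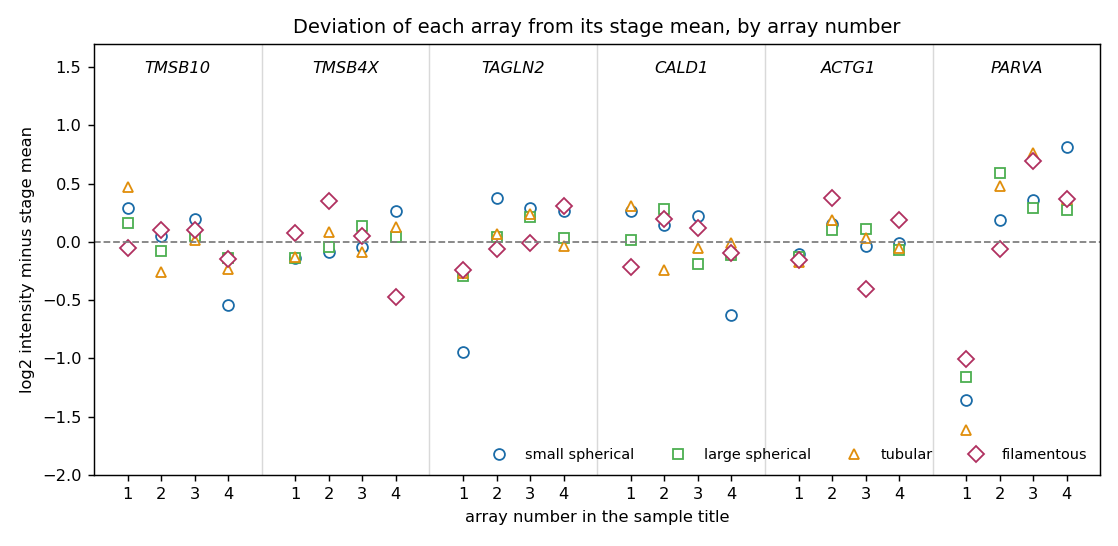
Log2 intensity of each array minus the mean of its stage (vertical axis), by the array number in the sample title (horizontal axis), for the 6 genes. Each point is 1 array and its shape and colour give the stage. Arrays numbered 1 lay below their stage mean for PARVA (-1.62 to -1.01), TAGLN2 (-0.94 to -0.24) and ACTG1 (-0.17 to -0.11) in all 4 stages, while for TMSB10, TMSB4X and CALD1 the filamentous stage went against the other 3.

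TAGLN2 was lower on the array numbered 1 than on the mean of the other 3 of its stage by 0.32 to 1.26 on the log2 scale, and TMSB10 was higher on it by 0.21 to 0.63 in 3 stages and lower in the filamentous one. The labels do not say what the numbers stand for. Pairs of probes within 10 numbers of each other had a median Pearson correlation of 0.09 over the 16 arrays, against -0.003 for pairs farther apart. For PARVA the median correlation with its 20 near probes was 0.48, against -0.11 with the 993 others, whereas for CALD1 both medians were near 0 (-0.01 and -0.005). Single probes with numbers close to that of CALD1 were still the most like it, as given below. With a smooth trend along probe number removed from each array, TAGLN2 passed in filamentous minus small spherical (1.12 ± 0.25, adjusted p = 0.0499) and in the trend (adjusted p = 0.0416).

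Counted together, 3 of the 6 genes leaned higher in filamentous conceptuses, none past the threshold. In filamentous minus small spherical, 4 of the 6 differences were positive with a median of 0.37, beside 462 of 1014 probes (45.6%) and a median of -0.03 over all probes. By limma 0 of 6 passed, where 9 of 1014 did (0.888%), and 3 of 6 had an unadjusted p below 0.05 and were higher, where 9.57% of all probes did. The 3 were TMSB10, TAGLN2 and CALD1, which were also the genes whose filamentous arrays all exceeded the small spherical ones, a state that 4.54% of probes reached.

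In large minus small spherical, 0 of 6 passed by limma, where 4 of 1014 did (0.394%), and CALD1 and TMSB4X had an unadjusted p below 0.05 (7.2% of all probes were higher at that level). The arrays of these 2 genes did not overlap between the 2 stages, as for 3.85% of probes. In tubular minus small spherical 0 of 6 passed (0.394% of all probes), with TMSB10 and CALD1 at an unadjusted p below 0.05 and higher (7.4% of all probes) and without overlap (4.54%). All 3 comparisons use the same 4 small spherical arrays. The members were chosen with earlier results known, so their counts describe these genes and do not stand for actin genes at large.

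Between the 3 later stages 0 of 6 genes passed by limma, nor did any other probe (0% in each). At an unadjusted p below 0.05 and higher, TMSB10 was the 1 gene of the 6 in filamentous minus large spherical (3.25% of all probes) and in tubular minus large spherical (1.68%), and in filamentous minus tubular there were 0 (2.56%). Filamentous arrays lay wholly above large spherical ones for TMSB10 and TAGLN2 (2.86% of all probes), tubular above large spherical ones for TMSB10 (1.18%), and filamentous above tubular ones for 0 of 6 (1.97%). Over the 4 stages together, 0 of 6 passed the F test (0.394% of all probes), with an unadjusted p below 0.05 for TMSB10 (0.00297), CALD1 (0.00514) and TAGLN2 (0.0144), beside 10.4% of all probes. At that level the trend was higher for TMSB10 and TAGLN2 (8.58% of all probes).

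**Figure D4:**
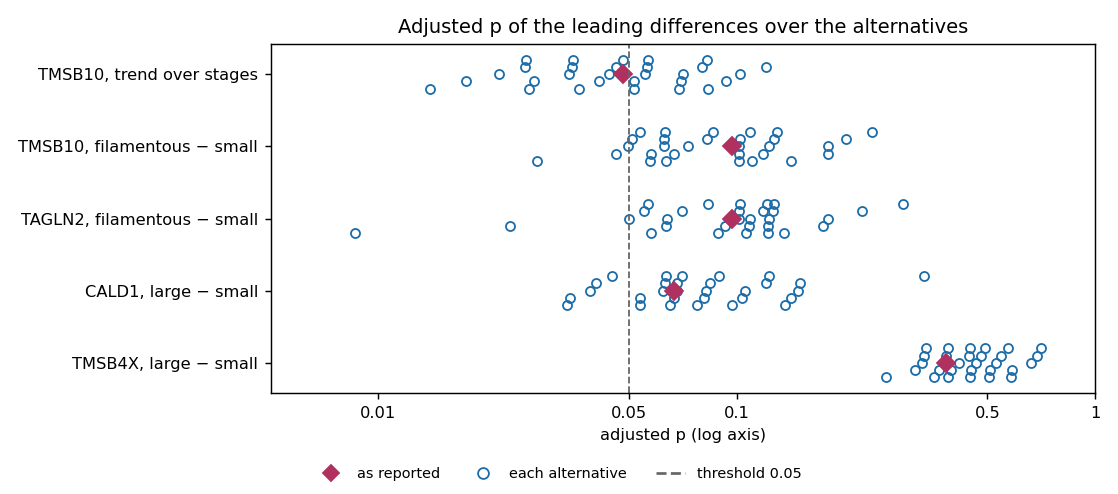
Adjusted p (horizontal log axis) of the leading differences, as reported (filled diamonds) and under each alternative processing or omitted array (open circles), with the threshold of 0.05 dashed. The TMSB10 trend lay on both sides of the threshold, passing in 15 of 29 alternatives, while TMSB10 and TAGLN2 in filamentous minus small spherical passed in 3 of 30 each and CALD1 in large minus small spherical in 5 of 30.

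Other genes of the actin system gave no call in these comparisons. Of 94 listed actins, actin regulators and myosins, 8 were measured. In filamentous minus small spherical 4 were positive and 4 negative, beside 45.6% of all probes positive. By limma 0 of 8 passed, where 0.888% of all probes did. None had an unadjusted p below 0.05, beside 9.57% of all probes higher and 5.03% lower at that level. With so few genes, counts of 0 lie near these shares. CSRP2, a LIM protein of the actin cytoskeleton, read 112 ± 33.4 in filamentous and 80.7 ± 27 in small spherical conceptuses (adjusted p = 0.379). Its large spherical level was 121 ± 18.6 and its tubular level 112 ± 13.6, with log2 differences from small spherical of 0.62 ± 0.24 (unadjusted p = 0.0195, adjusted p = 0.32) and 0.52 ± 0.24 (unadjusted p = 0.0467, adjusted p = 0.429). RHOA, the GTPase that drives stress fibre formation, read 73.9 ± 15.1 in filamentous and 53 ± 14.9 in small spherical conceptuses (adjusted p = 0.432). ACTR3, a subunit of the ARP2/3 complex that branches filaments, read 196 ± 28.7 in filamentous and 247 ± 40.7 in small spherical conceptuses (adjusted p = 0.515).

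Genes that link adhesions to actin gave no call either. All 5 measured of 30 listed were negative in filamentous minus small spherical, with a median of -0.36, 0 passing by limma and 2 lower at an unadjusted p below 0.05. Over all probes 54.4% were negative, the median was -0.03 and 5.03% were lower at that level. CTNNB1, beta-catenin of cell junctions, read 202 ± 16.9 in filamentous and 278 ± 47.9 in small spherical conceptuses (-0.45 ± 0.17, adjusted p = 0.239). TES, a LIM protein of focal adhesions, read 178 ± 28.4 in filamentous and 238 ± 26.2 in small spherical conceptuses (-0.42 ± 0.18, adjusted p = 0.274). VCL, vinculin, read 17.1 ± 6.42 in filamentous and 21.4 ± 5.08 in small spherical conceptuses (adjusted p = 0.629).

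Among the other filament systems, 3 of 25 listed tubulin and microtubule genes were measured. In filamentous minus small spherical 1 was positive and 2 negative (45.6% of all probes positive). None passed (0.888% of all probes) or had an unadjusted p below 0.05 (9.57% of all probes higher, 5.03% lower). TUBA1B, an alpha tubulin, read 178 ± 13.9 in filamentous and 219 ± 63.6 in small spherical conceptuses (adjusted p = 0.556), TUBA1A, another alpha tubulin, had an adjusted p of 0.811, and STMN1, which destabilises microtubules, one of 0.937. Of 11 intermediate filament genes 4 were measured, 3 positive, with 0 passing and 2 higher at an unadjusted p below 0.05 (9.57% of all probes). VIM, vimentin of mesenchymal cells, read 61.2 ± 21.4 in filamentous and 35.8 ± 5.51 in small spherical conceptuses (0.72 ± 0.28, adjusted p = 0.239). KRT19, a trophectoderm keratin, read 135 ± 30.6 in filamentous and 93.6 ± 26.6 in small spherical conceptuses (adjusted p = 0.274). KRT8, its companion in simple epithelia, read 23.9 ± 8.47 in filamentous and 19.5 ± 4.6 in small spherical conceptuses (adjusted p = 0.723).

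The arrays measured RNA of conceptuses, which hold several cell types, and fewer cells of a type and less RNA per cell cannot be told apart. Of trophectoderm markers 6 of 15 were measured, with a summed intensity of 557 to 872 in filamentous and 411 to 795 in small spherical conceptuses. In filamentous minus small spherical 5 of the 6 were positive (45.6% of all probes). PLAC1 passed (adjusted p = 0.0159), where 0.888% of all probes did. KRT18 read 250 ± 47.4 in filamentous and 269 ± 39.9 in small spherical conceptuses and was negative (-0.11 ± 0.18, adjusted p = 0.872). PDPN (adjusted p = 0.097) and SFN (adjusted p = 0.491), both of trophoblast epithelium, had positive differences. PDPN varied widely among small spherical conceptuses (63.2 ± 69.1). In large minus small spherical, 5 of the 6 were positive (45.9% of all probes), with sums of 667 to 853 in large spherical conceptuses. KRT18 was again negative (-0.04 ± 0.18). Of the 6, 3 were higher at an unadjusted p below 0.05 (7.2% of all probes). The 3 were PLAC1 (1.07 ± 0.28, adjusted p = 0.0887), PDPN (2.12 ± 0.55, adjusted p = 0.0887) and SFN (0.73 ± 0.31, adjusted p = 0.393). PLAC1 also passed in tubular minus small spherical (1.36 ± 0.28, adjusted p = 0.046), as did 0.394% of all probes. The sums were 679 to 839 in tubular conceptuses. Of hypoblast and yolk sac markers 5 of 11 were measured, summing to 436 to 592 in filamentous and 303 to 424 in small spherical conceptuses, but they did not move together: 3 differences were positive and 2 negative, and 0 passed. TF, transferrin, read 11.5 ± 5.47 in filamentous and 26.6 ± 6.31 in small spherical conceptuses (-1.37 ± 0.44, adjusted p = 0.158). The differences of APOA1 (0.57 ± 0.25, adjusted p = 0.313) and RBP4 (0.90 ± 0.34, adjusted p = 0.223), both carriers of lipid or retinol, were positive.

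Mesoderm and stroma markers, 6 of 12 measured, summed to 265 to 338 in filamentous and 248 to 310 in small spherical conceptuses. In filamentous minus small spherical 3 differences were positive and 3 negative, with a median of 0.04, and 0 passed. Over all probes 45.6% were positive. By F over stages the first 3 were VIM, KDR and T. Of these VIM (0.72 ± 0.28, adjusted p = 0.239) and KDR (0.66 ± 0.24, adjusted p = 0.215) were positive. T was negative (-0.18 ± 0.62, adjusted p = 0.962). Against large spherical conceptuses all 6 markers were positive in filamentous ones (median 0.27, with 47.4% of all probes positive). The same held in tubular ones (median 0.25, with 42% of all probes positive), and 0 passed in either. VIM was 1.05 ± 0.28 in filamentous minus large spherical (adjusted p = 0.61). Smooth muscle, which shares many actin-binding genes with the 6, was covered by 2 of 8 markers, ACTA2 and TAGLN, summing to 74.2 to 184 in filamentous and 80.6 to 132 in small spherical conceptuses (adjusted p = 0.969 and 0.867). Of maternal uterine epithelium 2 of 8 markers were measured, ACP5 (adjusted p = 0.551) and PGR (0.987), summing to 9.59 to 34.8 in filamentous and 22.2 to 32.9 in small spherical conceptuses. Of maternal blood 1 of 10 was, CD3E, at 1.71 to 3.63 in filamentous and 1.79 to 3 in small spherical conceptuses (adjusted p = 0.906). Of the 5 epiblast markers 0 were measured. No deposited value was 0 or below (lowest 0.12) and no blank feature gives a floor, so detection of dim markers such as CD3E and PGR could not be judged. The part of the trophectoderm, yolk sac and mesoderm markers in the differences of the 6 genes was not tested.

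The genes most like each member were found by the Pearson correlation of log2 intensity over the same 16 arrays, and are given as a description. CALD1 was followed closely by SOD1, a superoxide dismutase (0.92), HSD17B4, an enzyme of peroxisomal fatty acid oxidation (0.91), and HMGB1, a chromatin protein (0.90). Within stages, after removal of the stage means, these correlations were 0.85, 0.85 and 0.83. The probe numbers of these 3 genes, 914, 927 and 932, lay close to that of CALD1, 937. In large minus small spherical their log2 differences were 0.82, 0.89 and 0.78, beside 0.89 for CALD1. Their unadjusted F p-values over stages were 0.00531, 0.0238 and 0.00758. The cause of this likeness was not tested.

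TMSB10 was most like GABARAPL2, an autophagy protein (0.95, and 0.88 within stages), whose probe number 394 was close to its own, 398. In filamentous minus small spherical GABARAPL2 gave a log2 difference of 1.06, beside 0.78 for TMSB10. Next came TMBIM6, a membrane protein that limits cell death (0.78), and CYP11A1, the side-chain cleavage enzyme of steroid synthesis (0.76, and 0.53 within stages). TAGLN2 was most like CITED1, a transcriptional coregulator found in trophoblast (0.86), FTL, the ferritin light chain (0.83), and GLUL, glutamine synthetase (0.79). TMSB4X was most like EIF3M, a translation initiation subunit (0.85), then TDP2 (0.75) and OSBPL9 (0.71).

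PARVA was most like OAZ1, the antizyme of ornithine decarboxylase (0.93), AIF1 (0.90) and PARK7, a redox-sensitive chaperone (0.89). Their unadjusted F p-values over stages were 0.848, 0.756 and 0.991. ACTG1 was most like NSUN2, an RNA methyltransferase (0.70), BLNK (0.70) and ACTA2, smooth muscle alpha actin (0.68).

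Among themselves the 6 genes did not vary as one. Of the 15 pairs, CALD1 and TMSB10 had the highest correlation over 16 arrays (0.60, and 0.81 within stages) and TMSB10 and PARVA the lowest (-0.40, and -0.65 within stages). TAGLN2 and TMSB10, both highest in the longer stages, correlated at 0.34 over the 16 arrays and at -0.47 within stages. TAGLN2 and PARVA, both low on arrays numbered 1, correlated at 0.52 and at 0.78 within stages.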

How the data were processed

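The authors deposited linear intensity values of 1015 probes for 16 arrays (0 columns were left out). Per the labels, targets made from amplified RNA with phosphorus-32 were put on cDNA membranes. Scanning, background subtraction and normalization are not given in the sources used here. Values ran from 0.12 to 805, with 160 to 256 distinct values per array and up to 8 probes sharing its maximum, and no blank feature gives a floor for dim probes such as PARVA. Array medians spanned 0.185 on the log2 scale, so log2 values were used as they stood, without a pseudocount or added normalization. Probe 357, constant on all arrays, was left out.

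Of the probes, 676 had 1 gene symbol, 15 several and 324 none. The RefSeq gene table (Sscrofa11.1) held 668 of the 674 identifiers of probes with 1 symbol and 1 Entrez number, and changed 0 symbols. Groups and replicate numbers came from the sample titles. With limma 3.58.1 in R 4.3.3, the 4 stage means of all 1014 varying probes were fitted together (lmFit, contrasts.fit, eBayes), with an F test over stages, 6 contrasts between stages and a trend with weights -3, -1, 1 and 3. Tests were two-sided with Benjamini-Hochberg adjustment over 1014 probes. Folds compare geometric means, and intervals are at 95%. The thymosin ratio was tested by exact permutation (scipy 1.17.1). Plots used matplotlib 3.10.9. The fit was tested on simulated data.

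Named genes were the 6 members, up to 3 genes of each fixed list by F, the 3 genes most alike to each member, and STAR. Where a gene had several probes, the one with the highest mean stood for it. Members, lists and tests were chosen with earlier results of these data known. Alternatives were 3 normalizations, an offset of 16, a filter on the dimmest 25% of probes, values at the array maximum set missing, a replicate block, array weights, a variance trend with robust prior, removal of a trend along probe number (loess, span 0.1), a term for or omission of the arrays numbered 1, only the stages compared, omission of small spherical replicate 3 with filamentous replicate 1, and each array left out. Arrays with the same number deviated together in all 4 pairs of large and small spherical stages (correlations of 0.219 to 0.495), and in each other contrast at least 1 pair stayed under 0.1.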

Additional observations from a re-analysis of the deposited data

Results flagged for a closer look

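Of 24 groups of 4 arrays (6 genes in 4 stages), 2 held an array far from the other 3 by Dixon's ratio of gap to range, at the 95% limit, which chance passes in about 1 in 20 groups. TAGLN2 read 19.1 on small spherical replicate 1, where the nearest array read 44.3 (ratio 0.877). CALD1 read 80.2 on small spherical replicate 4, where the nearest read 137 (ratio 0.835). Both lie in the stage that the differences of these genes are measured from, and both are low values, so each enlarges a difference given above: without them filamentous minus small spherical was 0.66 for TAGLN2, against 0.98 with it, and large minus small spherical was 0.68 for CALD1, against 0.89 with it.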

How the results depend on the processing

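The alternatives changed the sign of no reported difference of TMSB10, TMSB4X, TAGLN2 or CALD1. Signs turned where the filamentous minus small spherical difference was near 0, and the cause was not tested. ACTG1 gave 0.013 when small spherical 3 and filamentous 1 were both left out, 0.022 without small spherical 2 and 0.024 without filamentous 1, with a range of -0.15 to 0.11 over single arrays left out. PARVA gave 0.018 with cyclic loess and 0.43 when small spherical 3 and filamentous 1 were both left out. It gave 0.04, 0.10, 0.25 and 0.31 when small spherical 2, 3, 4 or filamentous 1 was, with a lowest value of -0.48 without small spherical 1.

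Of 238 recounts of the 6 genes, 210 gave the main count and 28 did not. In filamentous minus small spherical (0 as reported), the replicate block and the term for arrays numbered 1 each gave 2 (TMSB10 and TAGLN2), removal of the trend along probe number gave 1 (TAGLN2), and leaving out 1 array gave 0 to 1. In tubular minus small spherical (0), the replicate block and array weights gave 1 each. In large minus small spherical (0), 1 gene passed without the dimmest 25% of probes, with the offset of 16, with the variance trend and robust prior, and without small spherical 3 and filamentous 1, and leaving out 1 array gave 0 to 1. For the trend (1), the replicate block, removal of the trend along probe number and the term for arrays numbered 1 gave 2 each (TMSB10 and TAGLN2), the 12 arrays numbered 2 to 4 and the omission of small spherical 3 and filamentous 1 gave 0, and leaving out 1 array gave 0 to 1. The replicate block lost no call among the 6 genes. In large minus small spherical, where arrays of the same number deviated together in all 4 pairs, it gave CALD1 an adjusted p of 0.0682. Whether arrays of the same number were paired by design is not given in the labels.

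Over all probes, the F count of 4 became 2 without the dimmest 25%, 10 with the block, 7 with array weights, 10 with the term for arrays numbered 1 and 17 without small spherical 3 and filamentous 1 (1 to 13 leaving out 1 array). Filamentous minus small spherical, 9 as reported, gave 15 with the block, 14 with the term, 31 without those 2 arrays and 2 when only these stages were fitted (3 to 28). Tubular minus small spherical, 4, gave 13 without dim probes, 14 with the offset, 11 with the block, 29 with array weights, 14 with the variance trend and 29 without the 2 arrays (3 to 16). Large minus small spherical, 4, gave 7 without dim probes, with the offset, with the probe number trend removed and with the term, 9 with the variance trend and 36 without the 2 arrays (1 to 26). The trend, 10, gave 16 with quantile normalization, the offset, the block, the probe number trend removed and the term, and 26 without the 2 arrays (3 to 26). Averaging several probes of a gene gave no further value, since each of the 6 genes has 1 probe, and PARVA has no value without the dimmest 25%. Precision is limited by 4 arrays a stage, and no blank spot gives a background for dim probes.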
